A study of Homo sapiens with 16 samples.

Results

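The ZNF genes are the largest named group of human zinc finger genes, and 209 of them were followed here across 16 poly(A) RNA sequencing libraries of NOMO-1 cells, a human acute monocytic leukaemia line. The members are the entries of the deposited expression table whose symbol is ZNF, a number and at most 1 letter, and whose mean over the 4 DMSO libraries was at least 8 TPM (a share of all transcripts of a library that is corrected for transcript length). The table holds 527 such symbols at any level among 26830 entries, and 399 of them were abundant enough to be tested. All 209 members passed the filter on low values, since each stood above 1 TPM in every library. The DMSO level chose the members, so it is given as a description. The rule itself uses no difference between groups, though it was set with earlier results of these data known.

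NOMO-1 cells received DMSO (the solvent, 4 libraries), the compound CS1 at 100 nM (3 libraries) or the compound CS2 at 500 nM (3 libraries) for 72 hours. In a separate arm, cells carried a control short hairpin (shNS, 3 libraries) or a hairpin against FTO (shFTO, 3 libraries) and were kept in puromycin at 1 µg/ml for 1 week. FTO takes methyl groups off m6A, a modified adenosine in RNA, and the series describes CS1 and CS2 as inhibitors of it. The compounds are labelled by these names alone. From general knowledge of the published study, not checked here, CS1 is bisantrene and CS2 is brequinar. All groups are the same cell line. The series calls the replicates biological without saying what separates them, so p-values measure the spread between these libraries.

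Most ZNF proteins carry arrays of C2H2 zinc fingers, each a small fold that holds a zinc ion and reads a few bases of DNA. A large subclass joins the array to a KRAB box, which recruits the scaffold protein TRIM28 (KAP1). TRIM28 in turn brings the histone H3K9 methyltransferase SETDB1, HP1 proteins and a deacetylase complex, and this machinery silences retroelements. KRAB genes arose by repeated duplication and lie in tandem clusters, many of them on chromosome 19. Other ZNF proteins bind promoters, RNA, ribosomes or the spindle.

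Of the 209 members, 205 had a coding sequence in the GENCODE 29 annotation. A KRAB box was found in 116 of these proteins and not in 89. The KRAB proteins had a median of 11.5 fingers and the others a median of 6. The longest arrays were the 31 fingers of ZNF142 and of ZNF646 and the 30 of ZNF850. The finger pattern was not found in 4 proteins, ZNF185, ZNF330, ZNF703 and ZNF839; ZNF185, for example, is a LIM domain protein of the actin cytoskeleton. The remaining 4 members carry pseudogene symbols (ZNF252P, ZNF271P, ZNF767P and ZNF818P). Chromosome 19 held 82 of the 208 members that could be placed (39.4%), against 7.71% of all entries tested. It held 64 of the 116 KRAB members and 18 of the 89 others. KRAB genes of a cluster are close in sequence, and RSEM divides reads that fit several genes, so single values of near-identical neighbours such as ZNF587 and ZNF587B are uncertain. The same holds for overlapping genes, since the sources used here do not say whether strand was used in counting.

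Members of the same cluster can also have separate promoters of similar sequence. RefSeq (GRCh38.p14) gave 235 promoters for 179 members, each 250 bases before to 50 bases after a start. The letters CCGGAAG, the core of sites bound by ETS family factors, were found on either strand in 87 of the 235 (37%), against 16.5% of the promoters of tested entries and 10.3% of all promoters of that table. The share was 42.5% for KRAB members and 30.6% for the others. The core letters of ZNF143 sites (ACTACAA) stood in 7.23% of member promoters and in 3.44% of those of tested entries, and an E2F site (TTCGCGC) in 7.66% and 3.38%. The shares were closer for YY1 (AAGATGG, 8.94% and 7.16%), NRF1 (GCATGCG, 7.66% and 5.55%) and the E-box (CACGTG, 8.09% and 9.24%). None of these 6 motifs contains another, both strands were searched, and a match is a description, not a binding site. Member promoters held a median of 23 CpG, against 24 for tested entries and 14 for all. The 250 bases before the start of 4 KRAB neighbours of the 19p12 region are shown because these genes rose together with both compounds and because their promoters are similar in sequence. Capitals mark the CCGGAAG match, here on the reverse strand, and all sequences run 5′ to 3′ along the gene. They lie at chr19:19900696-19900945 (ZNF93, plus strand), chr19:21020407-21020656 (ZNF430, plus strand), chr19:21141790-21142039 (ZNF431, plus strand) and chr19:21767580-21767829 (ZNF100, minus strand).
ZNF93: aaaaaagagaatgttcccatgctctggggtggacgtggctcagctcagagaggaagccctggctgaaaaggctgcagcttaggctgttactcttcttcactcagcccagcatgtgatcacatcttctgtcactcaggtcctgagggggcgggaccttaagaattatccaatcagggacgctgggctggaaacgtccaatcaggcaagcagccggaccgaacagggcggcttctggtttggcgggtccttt
ZNF430: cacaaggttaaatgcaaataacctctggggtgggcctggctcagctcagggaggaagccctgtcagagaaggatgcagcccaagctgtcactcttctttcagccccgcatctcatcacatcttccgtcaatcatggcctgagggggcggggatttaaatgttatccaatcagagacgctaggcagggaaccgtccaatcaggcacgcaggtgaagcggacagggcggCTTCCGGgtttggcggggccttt
ZNF431: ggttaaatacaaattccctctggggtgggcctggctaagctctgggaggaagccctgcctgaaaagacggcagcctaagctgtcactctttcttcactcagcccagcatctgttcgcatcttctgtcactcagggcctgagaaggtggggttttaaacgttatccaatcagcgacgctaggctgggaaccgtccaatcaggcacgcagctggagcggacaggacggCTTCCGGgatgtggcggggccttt
ZNF100: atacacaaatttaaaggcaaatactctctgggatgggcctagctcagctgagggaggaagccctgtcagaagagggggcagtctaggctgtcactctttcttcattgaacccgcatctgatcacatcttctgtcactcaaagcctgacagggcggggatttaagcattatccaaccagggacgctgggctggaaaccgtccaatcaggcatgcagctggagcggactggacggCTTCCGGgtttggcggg
Aligned in pairs over 222 to 245 bases, these promoters were between 84.0% and 87.8% identical. The ETS match lies 23, 24 and 17 bases before the start in ZNF430, ZNF431 and ZNF100, and ZNF93 has no match to the 6 motifs in these bases. The 4 windows hold 8, 10, 11 and 8 CpG in the order shown.

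Facts of the libraries that touch the results are these. FTO stood at 31.3, 30.8 and 32.8 TPM with the control hairpin and at 8.12, 7.49 and 8.35 TPM with the FTO hairpin, a log2 difference of -1.86 (SE 0.06, limma adjusted p = 7.38e-12). With CS1 (34.1 ± 2.43 TPM, SD, n = 3) and CS2 (34.2 ± 1.02, n = 3) FTO did not pass the test against DMSO (31.6 ± 1.82, n = 4). TPM keep no read counts, so depth is unknown; between 18675 and 19358 entries were above 0 per library. Of 9 markers of monocytic leukaemia cells 6 reached 1 TPM in every library, and MPO and CD14 were below 1 TPM in every library. Of 10 markers of other cells 8 were below 1 TPM throughout, CD3E and HBA1 were listed at 0, and the sum of the list ran from 3.16 to 8.78 TPM over the libraries. The monocytic list summed to between 360 and 2955 TPM. LYZ, the lysozyme of myeloid cells and the marker with the highest single value, was at 75.3 ± 5.66 TPM in DMSO, 254 ± 8.3 with CS1, 318 ± 14.4 with CS2, 163 ± 3.29 with shNS and 2226 ± 306 with shFTO. LYZ passed the test upward with CS1, CS2 and shFTO against their controls, and the part of such myeloid changes in the ZNF results was not tested. In bulk RNA, fewer cells of a kind and less RNA per cell cannot be told apart.

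In DMSO the members were modestly expressed. Their means ran from 8.03 to 231 TPM with a median of 14.8, while the 9328 entries of the table at or above 8 TPM had a median of 34.6. Only 13 members reached 50 TPM and 3 reached 100 TPM, and 116 lay below 16 TPM. KRAB members had a lower median (12.3 TPM) than members without a KRAB box (19.6 TPM). ZNF207 (BuGZ, a spindle protein that loads the checkpoint factor BUB3) was the most abundant at 231 ± 4.09 TPM (SD, n = 4), followed by ZNF146 at 127 ± 5.88, ZNF664 at 104 ± 4.08, ZNF593 at 84.0 ± 4.45 and ZNF706 at 74.6 ± 0.718. The gaps between these neighbours exceed their SDs. At the threshold, ZNF430 (8.03 TPM), ZNF219 (8.11) and ZNF785 (8.12) were just inside, and ZNF552 (7.99), ZNF559 (7.95) and ZNF696 (7.95) just outside.

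Together the members took a larger part of the transcript pool in compound-treated cells. Their summed level was 4577 to 4650 TPM in the DMSO libraries, 5098 to 5495 with CS1, 5775 to 6083 with CS2, 3954 to 4066 with the control hairpin and 4089 to 4273 with the FTO hairpin. Every CS1 library was above every DMSO library and every CS2 library above every CS1 library, and the hairpin groups did not overlap either. The transcripts of 79 ribosomal protein entries moved as well: they made up 15.3 ± 0.735% of all TPM in DMSO, 14.1 ± 0.589% with CS1, 8.32 ± 0.113% with CS2, 17.8 ± 0.294% with shNS and 17.7 ± 0.638% with shFTO. TPM are shares of a fixed total, so a fall of abundant transcripts and a rise of others cannot be told apart; the part of the ribosomal protein share in the members' changes was not tested.

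**Figure D1:**
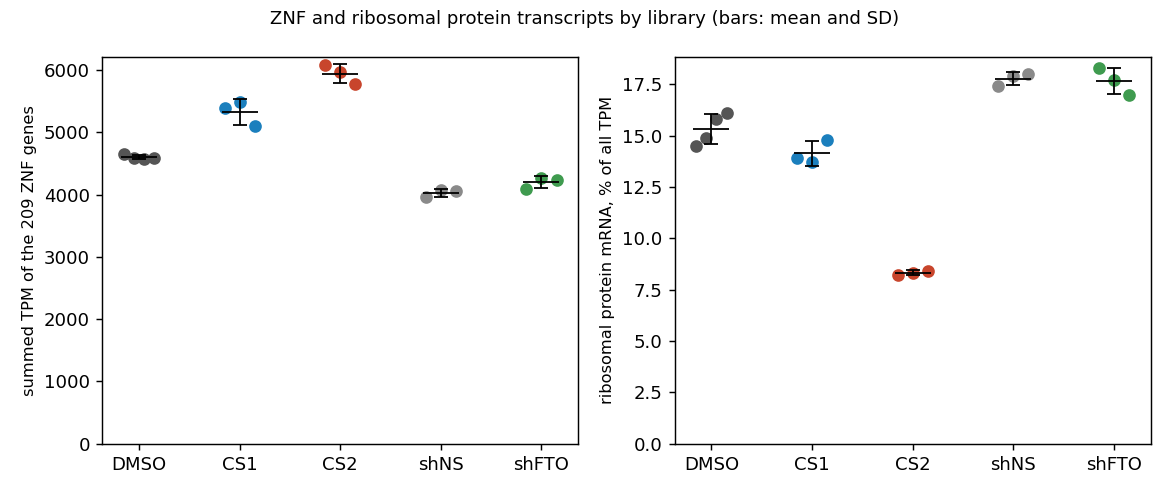
Summed level of the 209 ZNF genes (left, TPM) and share of 79 ribosomal protein entries in all TPM (right, percent) in each library, by group; points are libraries, the dash and bars the mean and SD. The ZNF sum is highest with CS2 (5943 ± 156 TPM) and the ribosomal protein share lowest there (8.32%).

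CS1 against DMSO addresses how ZNF transcripts stood after 72 hours at 100 nM. ZNF transcripts were mostly higher: 119 of 209 members (56.9%) rose and 11 (5.26%) fell, where 37.5% of the 14951 entries tested were called higher and 14.3% lower (limma on log2(TPM + 1), adjusted p under 0.05). Among the entries of at least 8 TPM in DMSO, 42.5% were higher and 17.6% lower. The member median was 0.21 on the log2 scale, against 0.09 over all entries tested. KRAB members accounted for most of this, with 78 of 116 higher, 2 lower and a median of 0.29. Of the 89 members without a KRAB box 38 were higher and 9 lower, with a median of 0.12. The median of KRAB members on chromosome 19 was 0.34 (48 of 64 higher) and of those elsewhere 0.21 (30 of 52 higher). These counts are descriptions of chosen genes and their difference was not tested.

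The rise with CS1 was small for most members, and only ZNF93 passed a log2 difference of 1 (0.478% of members). No member fell by as much. Of all entries tested 2.83% rose and 0.495% fell by as much, and of those of at least 8 TPM in DMSO 1.58% and 0.322%. ZNF93 is a KRAB protein known for binding and silencing young LINE-1 elements, and its gene lies at chr19:19900913-19963464 (GRCh38). It was at 8.98, 8.83, 7.47 and 8.25 TPM in DMSO and at 23.4, 23.7 and 19.6 TPM with CS1, a log2 difference of 1.3 (SE 0.07, adjusted p = 2.89e-09). The lowest CS1 library was above every DMSO library. ZNF530, at 7.69, 8.29, 8.79 and 8.63 TPM in DMSO, stood at 16.9, 16.9 and 15.7 TPM with CS1 (0.90, SE 0.08). ZNF107, a KRAB gene on chromosome 7, went from 11.5 to 13.8 TPM over the DMSO libraries to 20.5 to 27.3 TPM with CS1 (0.90, SE 0.11). ZNF83 (29.1 ± 1.16 to 52.0 ± 7.29 TPM), ZNF226 (9.59 ± 1.11 to 17.4 ± 1.59) and ZNF200 (11.2 ± 0.687 to 20.1 ± 2.34) were the next, with log2 differences of 0.81, 0.80 and 0.79. Of these 6 genes 5 encode KRAB proteins; ZNF200 has 5 fingers and no KRAB box.

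The falls with CS1 were fewer and mostly outside the KRAB class. ZNF22, a 5-finger protein, was at 44.2, 43.7, 43.9 and 42.2 TPM in DMSO and at 27.6, 28.7 and 29.3 TPM with CS1 (log2 difference -0.59, SE 0.05, adjusted p = 1.2e-07). ZNF692 fell from 32.7 ± 1.96 to 22.6 ± 0.673 TPM (-0.51) and ZNF121 from 68.3 ± 2.6 to 52.2 ± 4.1 TPM (-0.38). ZNF70 (-0.32), ZNF337 (-0.32) and ZNF276 (-0.29) fell less, and ZNF337 is the only KRAB protein among these 6. These 6 genes were named only among members whose CS1 and DMSO libraries did not overlap.

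CS2 against DMSO gave larger changes in both directions. Of the 209 members 140 (67%) rose and 40 (19.1%) fell, where 49.5% of entries tested were called higher and 24.6% lower; among entries of at least 8 TPM the shares were 52.8% and 29.8%. The member median was 0.35, against 0.20 over all entries. The KRAB members (81 higher, 20 lower of 116, median 0.36) and the members without a KRAB box (57 higher, 18 lower of 89, median 0.34) stood at nearly equal medians here, which was not tested. Log2 differences of at least 1 were reached by 13 members upward (6.22%) and 4 downward (1.91%). Over all entries tested the shares were 10.2% and 4.68%, and over those of at least 8 TPM in DMSO 7.61% and 5.58%. The 13 were ZNF93, ZNF200, ZNF273, ZNF318, ZNF367, ZNF506, ZNF589, ZNF641, ZNF646, ZNF700, ZNF703, ZNF789 and ZNF888, and 8 of them have a KRAB box.

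ZNF93 was again the first of the rises, at 33.1, 30.8 and 30.8 TPM with CS2 (log2 difference 1.80, SE 0.07, adjusted p = 1.31e-11), so that each CS2 library was also above each CS1 library. ZNF200 (chr16:3222325-3236221) was at 10.6, 10.9, 11.1 and 12.2 TPM in DMSO and at 37.2, 35.4 and 37.1 TPM with CS2 (1.63, SE 0.07). ZNF589, a KRAB protein with 4 fingers first described in blood stem cells, was at 23.0, 24.3, 25.9 and 24.1 TPM in DMSO and at 68.5, 68.6 and 62.9 TPM with CS2 (1.42, SE 0.07). With CS1 it reached only 30.1, 33.4 and 26.3 TPM (0.28; 0.10 under median scaling, where the call is lost). ZNF703, a cofactor studied as an oncogene in breast cancer, went from 49.9 ± 1.96 to 121 ± 7.32 TPM (1.26). ZNF646, with 31 fingers, went from 10.5 ± 0.293 to 25.6 ± 1.45 TPM (1.21), and ZNF789 from 14.9 ± 0.275 to 35.3 ± 4.6 TPM (1.18).

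The falls with CS2 included the largest single differences among the members. ZNF25, a KRAB protein with 13 fingers (chr10:37949572-37976633), was at 12.1, 11.5, 11.4 and 10.8 TPM in DMSO and at 2.03, 2.22 and 1.72 TPM with CS2 (log2 difference -2.06, SE 0.07, adjusted p = 1.49e-12). ZNF280D (chr15:56630181-56734086) was at 14.9, 13.8, 13.6 and 14.1 TPM in DMSO and at 4.23, 3.87 and 2.52 TPM with CS2 (-1.75, SE 0.11). Neither gene passed the test with CS1, where ZNF25 stood at 10.8 ± 0.376 TPM and ZNF280D at 13.9 ± 1.27 TPM. ZNF558, a KRAB protein known to repress the mitophagy gene SPATA18, fell from 11.4 ± 0.392 to 2.86 ± 0.18 TPM (-1.69). ZNF692 fell from 32.7 ± 1.96 to 10.4 ± 1.33 TPM (-1.57), ZNF23 from 11.1 ± 0.849 to 5.46 ± 0.696 TPM (-0.91) and ZNF248 from 16.2 ± 1.47 to 8.79 ± 1.91 TPM (-0.83). These 6 genes were named only among members whose CS2 and DMSO libraries did not overlap.

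**Figure D2:**
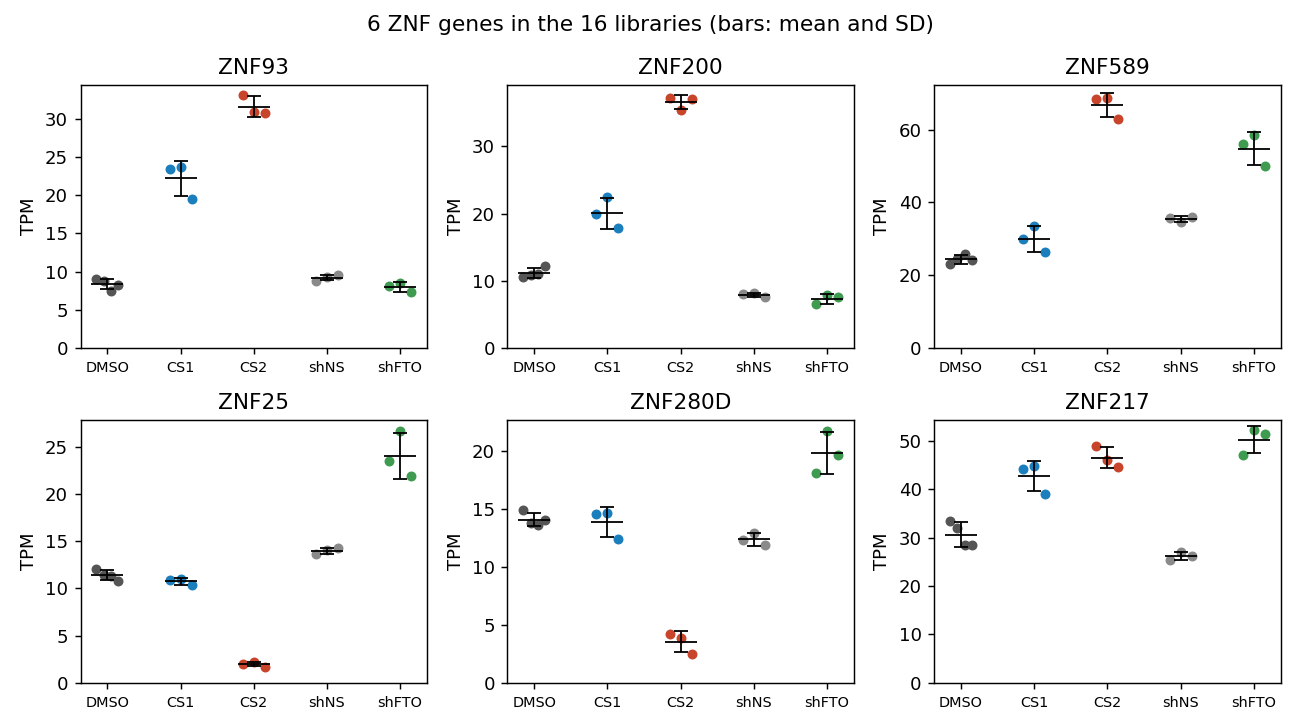
Level of 6 ZNF genes in each of the 16 libraries (TPM, axes from 0), by group; points are libraries, the dash and bars the mean and SD. ZNF93 and ZNF200 are high with both compounds, ZNF25 and ZNF280D are lowest with CS2 and highest with shFTO, and ZNF217 is high in CS1, CS2 and shFTO.

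The FTO hairpin moved the ZNF genes less, and no member reached a log2 difference of 1 in either direction (2.32% of entries tested did so upward and 0.843% downward). Among entries of at least 8 TPM in DMSO these shares were 1.31% and 1.02%. No library of this comparison was used to choose the members. Of the 209 members 64 (30.6%) rose and 32 (15.3%) fell, against 31.9% and 24.5% of all entries tested, so the share of rises was near the background. Among entries of at least 8 TPM in DMSO, 31.5% were higher and 35.3% lower, with a median of -0.01. The member median was 0.07, as was that of all entries. KRAB members (33 higher, 16 lower) and the others (30 higher, 16 lower) had medians of 0.08 and 0.04. ZNF217, an oncogene product that works with corepressors, was the first of the rises: 25.4, 27.1 and 26.2 TPM with shNS and 47.1, 52.2 and 51.5 TPM with shFTO (0.91, SE 0.07, adjusted p = 5.66e-08). ZNF652 (7.8 ± 0.24 to 14.4 ± 1.78 TPM, 0.80), ZNF185 (9.96 ± 0.583 to 17.2 ± 1.37, 0.73), ZNF25 (0.73), ZNF821 (0.67) and ZNF254 (0.64) followed. ZNF428, at 49.9, 51.6 and 50.9 TPM with shNS, was at 30.6, 28.2 and 36.7 TPM with shFTO (-0.67, SE 0.08). ZNF593 (-0.65), ZNF512 (-0.63), ZNF584 (-0.62), ZNF48 (-0.52) and ZNF142 (-0.52) also fell. These 12 genes were named only among called members whose hairpin groups did not overlap.

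The majority direction depends on scaling. When each library was shifted to a common median, the log2 median over all entries moved from 0.09 to -0.09 for CS1, from 0.20 to -0.03 for CS2 and from 0.07 to -0.01 for the hairpin. Members higher and lower were then 70 and 44 for CS1, 101 and 62 for CS2 and 46 and 60 for shFTO, so the hairpin majority turned. All entries tested then stood at 21.4% higher and 35.1% lower for CS1, 34.8% and 37.9% for CS2 and 25.1% and 30.8% for shFTO. The member median minus that of all entries was 0.12 for CS1, 0.15 for CS2 and 0.00 for the hairpin, which median scaling cannot change, since it shifts all genes of a library alike. It was 0.07, 0.14 and -0.01 under quantile normalization. With CS1, KRAB members kept more rises than falls (50 and 18), and members without a KRAB box did not (17 and 25). The first 6 rises and falls of CS2 against DMSO named above stayed called in the same direction under both scalings.

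**Figure D3:**
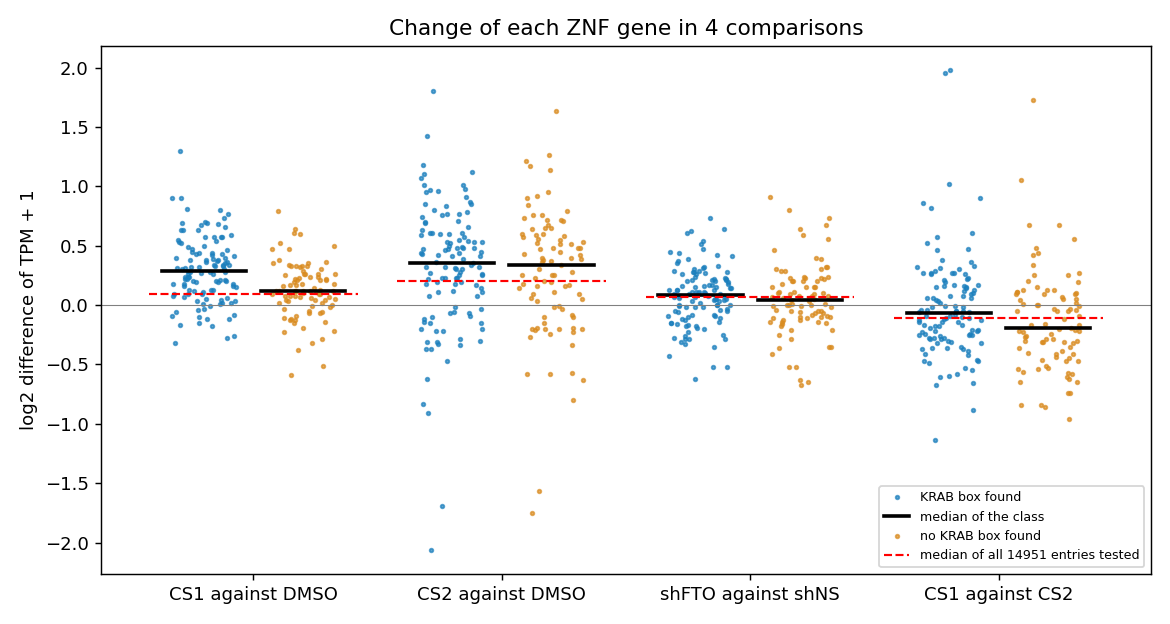
Log2 difference of TPM + 1 for the 205 coding ZNF genes (points) in 4 comparisons, split by KRAB box; black bars are class medians and red dashed lines the median of all 14951 entries tested. With CS1 the KRAB median (0.29) lies above that of the other members (0.12), and with the FTO hairpin the medians (0.08 and 0.04) lie near that of all entries (0.07).

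Members were also described by gene neighbourhood on chromosome 19, with no test of clustering. Chains of ZNF genes there with gaps under 500 kb were formed after the data were seen, and 7 chains with 5 or more members were described (A to G by position). Members on other chromosomes were higher in 50% of cases with CS1, in 64.3% with CS2 and in 35.7% with shFTO. Of all entries tested 37.5% were higher and 14.3% lower with CS1, 49.5% and 24.6% with CS2, and 31.9% and 24.5% with shFTO. Under median scaling these shares were 21.4% and 35.1%, 34.8% and 37.9%, and 25.1% and 30.8%. In chain B (chr19:19668796-24129961, 35 ZNF symbols, 10 members, all KRAB), which holds the promoters shown above, 9 of 10 members rose with CS1 with a median of 0.64, and 10 of 10 rose with CS2 with a median of 0.77. Under median scaling 8 of 10 were higher and none lower with either compound, and the medians were 0.47 and 0.54. ZNF93 (1.3 with CS1, 1.80 with CS2), ZNF506 (0.77 and 1.07), ZNF430 (0.73 and 0.97), ZNF100 (0.70 and 0.78), ZNF675 (0.66 and 0.98) and ZNF714 (0.63 and 0.76) led it. ZNF431 (0.54 and 0.32), ZNF708 (0.47 and 0.61) and ZNF101 (0.16 and 0.77) rose less with CS1. ZNF254 differed, with 0.05 for CS1 (not called) and 0.18 for CS2, which turned to -0.05 under median scaling and was lost when CS2 replicate 1 or 2 or DMSO replicate 3 or 4 was left out. With the FTO hairpin 4 of the 10 rose: ZNF254 (0.64), ZNF714 (0.45), ZNF430 (0.44) and ZNF675 (0.33). ZNF93 was at 9.22 ± 0.37 TPM with shNS and 8.01 ± 0.619 TPM with shFTO (-0.18, adjusted p = 0.0638). The CCGGAAG letters stood in 6 of the 9 promoters of this chain, those of ZNF430, ZNF431, ZNF708, ZNF100, ZNF675 and ZNF254.

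In chain E (chr19:51571298-53580269, 10 members) all 10 rose with CS1, from ZNF614 (0.18) to ZNF83 (0.81), with a median of 0.37; under median scaling 4 were higher and none lower. With CS2 9 of 10 rose, and ZNF888 went from 12.9 to 28.8 TPM (1.1); under median scaling 4 were higher and 1 lower. In chain G (chr19:57191500-58481230, 19 members) 11 rose and none fell with CS1, while 12 rose and 5 fell with CS2 (9 and 4, and 10 and 6, under median scaling). With shFTO 3 rose (15.8%) and 5 fell (26.3%) there, where 31.9% of all entries tested were higher and 24.5% lower. Median scaling gave 0 and 10 (52.6% lower), where 25.1% of all entries tested were higher and 30.8% lower. Among tested entries of at least 8 TPM in DMSO, the level of all members, 31.5% were higher and 35.3% lower with shFTO. Under median scaling these were 24.7% and 43.6%. The 5 that fell with CS2 were ZNF587B (-0.62), ZNF749 (-0.33), ZNF584 (-0.30), ZNF587 (-0.29) and ZNF814 (-0.22), of which ZNF587, ZNF587B and ZNF814 are near copies of each other, and the ZNF584 and ZNF814 libraries overlapped DMSO. ZNF274 in the same chain, which is known to bring SETDB1 to the 3′ ends of ZNF genes themselves, rose with CS1 (23.6 to 32.4 TPM, 0.44) and CS2 (34.6 TPM, 0.53); it was picked for this role after its values were seen. Chain G also held the most CCGGAAG letters, in 15 of 18 promoters, against 1 of 7 in chain A and 1 of 12 in chain C. Chains D, E and F held them in 2 of 8, 5 of 9 and 4 of 9 promoters. A tie between these letters and the rises was not tested. In chain A (chr19:8509678-9793180, 6 members) 5 rose and ZNF121 fell with CS1, whereas 3 rose and ZNF558 and ZNF121 fell with CS2; median scaling gave 3 and 1, and 0 and 4, so the CS2 majority turned. Chains C, D and F had medians of 0.13, 0.34 and 0.19 with CS1 and 0.30, 0.57 and 0.31 with CS2. Under median scaling the CS1 counts of higher and lower were 3 and 3 in C, 4 and 0 in D and 0 and 1 in F.

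**Figure D4:**
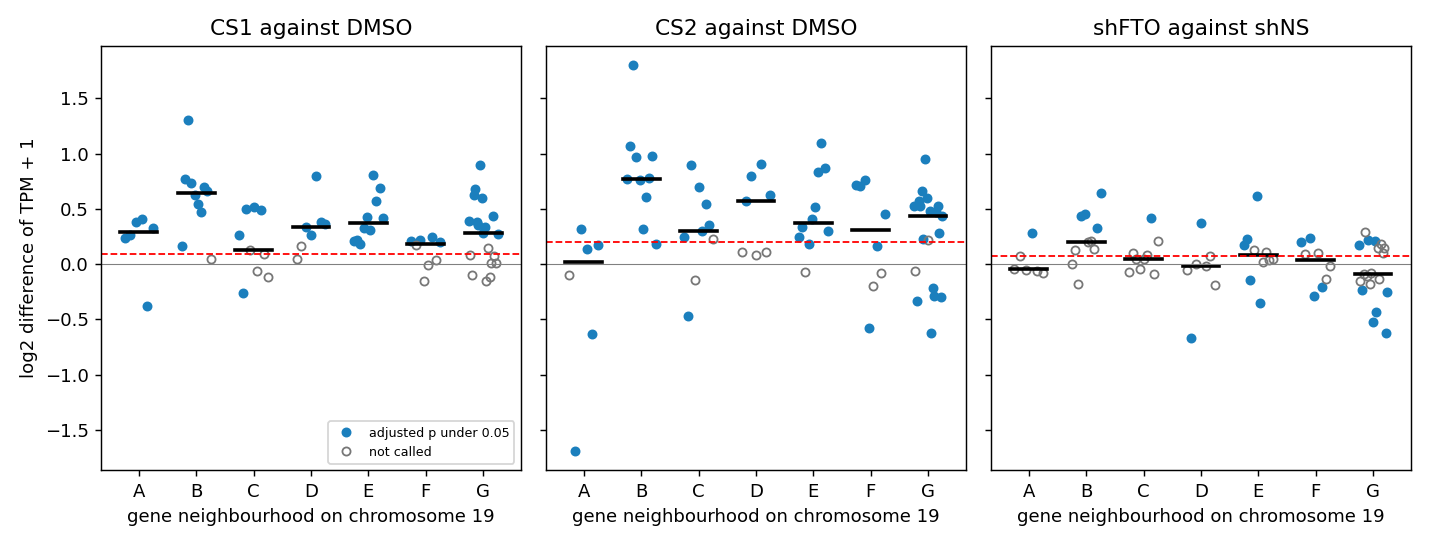
Log2 difference of TPM + 1 for the members of 7 gene neighbourhoods on chromosome 19 (A to G by position), for CS1, CS2 and the FTO hairpin against their controls; filled points passed the test, bars are medians and the red dashed line is the median of all entries tested. In B, 9 of 10 members rose with CS1 and all 10 with CS2, where 37.5% and 49.5% of all entries tested were higher.

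By role, the KRAB proteins known to bind retroelements had 7 members of the 15 genes listed. With CS1 4 rose and none fell, with CS2 5 rose and 1 fell, and with the FTO hairpin 2 rose and 1 fell. The shares higher were 57.1%, 71.4% and 28.6%, against 37.5%, 49.5% and 31.9% of all entries tested. Median scaling gave 3 and 2 with either compound and 2 and 3 with the hairpin, where the majority turned. ZNF93 and ZNF430 are described above. ZNF419 went from 12.5 ± 1.05 TPM to 19.9 ± 1.15 with CS1 (0.63) and 19.1 ± 2.15 with CS2 (0.57). ZNF649 rose from 8.78 ± 0.421 TPM to 10.4 ± 0.738 (0.22) and 11.4 ± 0.697 (0.34), calls that both median scaling and quantile normalization end. ZNF587 fell with CS2 (32.5 ± 1.03 to 26.5 ± 0.773 TPM, -0.29), ZNF202 fell with shFTO (8.22 ± 0.225 to 6.59 ± 1.13 TPM, -0.29), and ZNF33A rose with CS2 by 0.19, which both turned to -0.04. Retroelement transcripts themselves were not analysed here.

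The members tied to translation differed from each other. ZNF593, the counterpart of a yeast factor of large ribosomal subunit export, was at 78.3, 82.7, 87.7 and 87.4 TPM in DMSO, 74.1, 69.3 and 87.1 with CS1, 45.0, 44.7 and 54.1 with CS2, 57.5, 54.6 and 58.0 with shNS and 36.9, 28.5 and 43.8 with shFTO. It fell with CS2 (-0.80, adjusted p = 1.24e-05) and with shFTO (-0.65, adjusted p = 0.000356), while the CS1 libraries overlapped DMSO. ZNF598, the ubiquitin ligase that marks collided ribosomes, rose with CS2 (57.8 ± 1.69 to 76.7 ± 2.13 TPM, 0.40) and fell with shFTO (48.6 ± 0.543 to 37.8 ± 0.742 TPM, -0.35). The difference between these responses was 0.76 (SE 0.05, adjusted p = 1.32e-08). ZNF622, a maturation factor of the large subunit, stood at 30.0 ± 1.43 TPM in DMSO and 34.0 ± 1.68 with CS1; its call (0.18) and that of ZNF598 with CS1 (0.10) end under median scaling, at -0.00 and -0.08.

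Among 5 members that work on RNA or the spindle, 4 rose with CS2 and none fell (3 and 1 under median scaling), where 49.5% of all entries tested were higher and 24.6% lower. ZNF207 rose from 231 ± 4.09 to 306 ± 7.43 TPM (0.40) and fell with shFTO from 158 ± 4.82 to 136 ± 14.8 TPM (-0.21), where 1 shFTO library overlapped the shNS libraries. ZNF326, a subunit of the DBIRD complex that links polymerase II to splicing, rose with CS2 from 14.6 ± 0.868 to 25.3 ± 1.21 TPM (0.76) and with shFTO from 9.46 ± 0.182 to 11.3 ± 0.805 TPM (0.23). ZNF346, which binds double-stranded RNA, rose with CS2 (10.7 ± 0.218 to 15.3 ± 0.95 TPM, 0.48). ZNF638 was at 58.8 ± 2.59 TPM in DMSO, 69.6 ± 7.1 with CS1 and 67.8 ± 7.61 with CS2, with overlapping libraries, and its CS2 call (0.20) turned to -0.03 under median scaling. ZNF830 did not pass in any of these comparisons. With CS1, 2 of the 5 were higher and none lower, and under median scaling none was higher and 3 were lower.

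Of 18 members that regulate transcription and chromatin, 16 rose and 1 fell with CS2 (88.9% higher, against 49.5% of all entries tested), with a median of 0.44 (12 and 1 under median scaling). With CS1 7 rose and 1 fell (38.9% higher, against 37.5%; 3 and 4 under median scaling), and with shFTO 8 rose and 2 fell (44.4% higher, against 31.9%; 6 and 4). ZNF143, a promoter-binding factor of many housekeeping genes, was at 18.4, 18.97, 18.9 and 17.4 TPM in DMSO and at 32.2, 32.0 and 28.6 TPM with CS2 (0.72, SE 0.05). Its level with CS1 was 16.6 ± 0.583 TPM, a call of -0.14 that is lost when any of DMSO replicates 1 to 3 or CS1 replicates 2 and 3 is left out. ZNF24 rose in all 3 comparisons, from 28.1 ± 1.71 TPM to 36.1 ± 3.16 with CS1 (0.35) and 49.5 ± 3.51 with CS2 (0.79), and from 23.8 ± 0.985 to 30.0 ± 2.44 with shFTO (0.32). ZNF410, known as the dedicated activator of the CHD4 gene, rose from 36.5 ± 1.2 to 47.8 ± 1.85 TPM with CS1 (0.38) and 55.7 ± 1.51 with CS2 (0.60). CHD4 itself was at 206 ± 5.1, 186 ± 1.61 and 197 ± 0.756 TPM in these groups, lower with both compounds (-0.15 and -0.07); it was picked after its values were seen. ZNF592 and ZNF687, partners in a complex with ZMYND8, rose with CS2 by 0.58 and 0.65. ZNF335, a component of a histone H3K4 methyltransferase complex, rose with CS2 by 0.52 (22.3 ± 1.05 to 32.4 ± 0.637 TPM). ZNF644, a partner of the H3K9 methyltransferases G9a and GLP, was the member that fell with CS2 (23.8 ± 2.57 to 20.5 ± 2.02 TPM, -0.21, lost without CS2 replicate 3 or DMSO replicate 1) and fell with shFTO (17.7 ± 0.285 to 13.6 ± 0.798 TPM, -0.36). ZNF516 rose with shFTO from 14.1 ± 0.612 to 21.2 ± 1.65 TPM (0.56), with CS2 by 0.45 and with CS1 by 0.26.

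A list of genes for TRIM28 and H3K9 silencing held 23 tested genes. Of these 5 rose and 4 fell with CS1, 12 rose and 6 fell with CS2, and 5 rose and 11 fell with shFTO. Median scaling gave 2 and 13, 7 and 9, and 4 and 14. The shares higher and lower were 21.7% and 17.4% with CS1 (37.5% and 14.3% of all entries tested), 52.2% and 26.1% with CS2 (49.5% and 24.6%) and 21.7% and 47.8% with shFTO (31.9% and 24.5%). Among tested entries of at least 8 TPM in DMSO they were 42.5% and 17.6%, 52.8% and 29.8%, and 31.5% and 35.3%. Median scaling gave the list 8.7% and 56.5% with CS1, 30.4% and 39.1% with CS2 and 17.4% and 60.9% with shFTO. Entries of at least 8 TPM then stood at 22.8% and 40.6%, 36.6% and 44.4%, and 24.7% and 43.6%. TRIM28 itself was at 391, 397, 418 and 423 TPM in DMSO, 338, 338 and 382 with CS1 and 233, 233 and 258 with CS2, log2 differences of -0.21 and -0.75 (adjusted p = 1.73e-09). It also fell from 287 ± 5.4 to 255 ± 6.52 TPM with shFTO (-0.17; -0.12 and not called under quantile normalization). CBX5, the gene of HP1 alpha, rose from 83.2 ± 4.57 to 105 ± 8.26 TPM with CS1 (0.33) and to 226 ± 26.9 TPM with CS2 (1.43). CBX1, SUV39H1 and RBBP4 rose with CS2 by 0.72, 0.98 and 0.87, and none of them passed the test with CS1. With shFTO SUV39H1 fell (47.5 ± 0.970 to 36.1 ± 3.75 TPM, -0.39), and CBX1 and RBBP4 did not pass. HDAC2 fell in all 3 comparisons (-0.15, -0.35 and -0.59). SETDB1 was at 32.7 ± 0.853 TPM in DMSO, 32.3 ± 0.685 with CS1 and 37.3 ± 0.913 with CS2 (0.18, which turned to -0.05 under median scaling), and rose from 36.5 ± 0.34 to 43.0 ± 2.82 TPM with shFTO (0.23).

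Compound and hairpin responses have separate controls and were set against each other. Of the 64 members higher with shFTO, 44 (68.8%) were also higher with CS1 and 48 (75%) with CS2; over all entries tested these shares were 52.7% and 60.6%. The base rates differ as well: 56.9% of members and 37.5% of all entries were higher with CS1, and 67% and 49.5% with CS2. As shares of the compound lists they were 37% of 119 and 34.3% of 140, against 44.9% and 39.1% over all entries. No member was lower with both CS1 and shFTO, where over all entries the shared genes were 43.5% of those lower with CS1 and 25.5% of those lower with shFTO. There were 10 members lower with both CS2 and shFTO (25% of 40 and 31.2% of 32, against 38.6% and 38.7%). ZNF217, ZNF185, ZNF430, ZNF714 and ZNF383 were each called higher with CS1, CS2 and shFTO against its control, where CS1 and CS2 share the DMSO libraries. ZNF217, the first of these with shFTO, was at 33.5, 32.0, 28.5 and 28.4 TPM in DMSO, 44.1, 44.9 and 39.1 with CS1 and 48.9, 46.1 and 44.6 with CS2. ZNF185 had larger differences than ZNF217 with CS1 (0.64 and 0.47) and CS2 (0.92 and 0.59), and went from 16.9 ± 0.763 TPM to 26.9 ± 1.02 with CS1 and 33.0 ± 0.916 with CS2. The response of ZNF185 differed from the hairpin response by -0.09 for CS1 (adjusted p = 0.359) and 0.19 for CS2 (adjusted p = 0.0529).

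Several members went in opposite directions with CS2 and with the FTO hairpin. ZNF25 was at 13.7, 14.0 and 14.3 TPM with shNS and 23.5, 26.6 and 21.9 TPM with shFTO, so its CS2 response minus its hairpin response was -2.79 (SE 0.10, adjusted p = 1.52e-11). ZNF280D, at 12.3, 12.95 and 11.9 TPM with shNS and 18.1, 21.8 and 19.7 with shFTO, gave -2.39 (SE 0.16, adjusted p = 5.78e-09). ZNF438 rose with shFTO (25.8 ± 1.16 to 39.5 ± 1.71 TPM) and fell with CS2 (36.97, 37.7, 38.1 and 38.97 TPM in DMSO, 34.4, 31.2 and 31.4 TPM with CS2), a difference of -0.82. In the other direction, ZNF512 rose with CS2 (41.1 ± 2.04 to 80.1 ± 0.775 TPM) and fell with shFTO (42.2 ± 0.986 to 26.9 ± 3.62 TPM), a difference of 1.58 (SE 0.11). ZNF789 (1.70), ZNF428 (1.24), ZNF598 (0.76) and ZNF207 (0.62) had the same pattern. ZNF93 (1.98) and ZNF200 (1.73) also differed, having risen with CS2 without passing the test with shFTO.

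CS1 and CS2 were given at different doses, 100 and 500 nM, so their levels are set side by side and a difference is one of compound and dose together. Directly compared, 47 members (22.5%) were higher and 92 (44%) lower with CS1 than with CS2, against 26.2% and 40.4% of all entries tested, and the member median equalled that of all entries (-0.11). Differences of at least 1 on the log2 scale were found for 5 members higher with CS1 (2.39%), namely ZNF25, ZNF558, ZNF280D, ZNF692 and ZNF23. They were found for 1 member higher with CS2 (ZNF589, 0.478%). Over all entries tested the shares were 3.95% and 3.8%, and over those of at least 8 TPM in DMSO 4.22% and 1.7%. ZNF25 was at 10.9, 11.1 and 10.3 TPM with CS1 and 2.03, 2.22 and 1.72 TPM with CS2 (1.98, SE 0.07), and ZNF558 at 13.9, 14.9 and 12.9 TPM against 3.00, 2.66 and 2.93 TPM (1.95, SE 0.07). ZNF318 (56.7 ± 2.6 and 111 ± 4.65 TPM, -0.96), ZNF789 (-0.88), ZNF143 (-0.86), ZNF512 (-0.84) and ZNF200 (-0.84) were lower with CS1. ZNF558, ZNF302, ZNF621, ZNF438 and ZNF252P were called higher with CS1 and lower with CS2 against the same DMSO libraries. Of these, ZNF302 was at 8.46 ± 0.638 TPM in DMSO, 13.3 ± 1.71 with CS1 and 6.62 ± 0.372 with CS2, and ZNF438 at 48.9, 46.5 and 48.8 TPM with CS1. The CS1 calls of ZNF558 (0.26) and ZNF621 (0.28) end under median scaling, at 0.08 and 0.10. ZNF93, ZNF530, ZNF107, ZNF83 and ZNF226, the first rises with CS1, had CS1 minus CS2 differences between -0.49 (ZNF93) and -0.02 (ZNF83). That of ZNF93 passed the test, and that of ZNF530 was -0.05 (95% interval -0.22 to 0.13).

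Members chosen by another threshold, and symbols chosen by other names, are set beside these counts. When members were chosen by a mean of at least 8 TPM over the shNS libraries, 54.9% were higher with CS1, 64.2% with CS2 and 31.1% with shFTO. Another 55 symbols of at least 8 TPM in DMSO were chosen by name (ZFP, ZKSCAN, ZSCAN, ZBTB, PRDM, KLF, SP and related names). The pattern takes SP with any number or letter, so it can admit symbols of other families, such as SPN. The proteins of the 55 symbols were not checked for zinc fingers. Of these 55 symbols 31 rose and 4 fell with CS1 (56.4% and 7.27%, against 37.5% and 14.3% of all entries tested). With CS2 33 rose and 7 fell (60% and 12.7%, against 49.5% and 24.6%). With shFTO 26 rose and 12 fell (47.3% and 21.8%, against 31.9% and 24.5%). The medians were 0.15, 0.27 and 0.14. Median scaling gave 15 and 16 with CS1 (27.3% and 29.1%, against 21.4% and 35.1% of all entries). With CS2 it gave 21 and 21 (38.2% and 38.2%, against 34.8% and 37.9%). With shFTO it gave 26 and 18 (47.3% and 32.7%, against 25.1% and 30.8%). Of 103 members with 10 or more fingers 69 (67%) were higher with CS1 and 75 (72.8%) with CS2, against 37.5% and 49.5% of all entries tested. Their medians (0.28 and 0.43) were higher than those of members with 1 to 9 fingers (0.13 and 0.26). Of the latter 44.9% and 61.2% were higher. KRAB members have more fingers (a median of 11.5) than the others (6), and the part of each trait was not tested. Under median scaling the CS1 counts were 46 higher and 15 lower (44.7% and 14.6%) with 10 or more fingers. With 1 to 9 fingers they were 19 and 28 (19.4% and 28.6%), against 21.4% and 35.1% of all entries. The 4 members without a finger match had 3 rises (75%) with each of CS1, CS2 and shFTO, ZNF185 and ZNF703 among them.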

How the data were processed

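Poly(A) RNA of 16 NOMO-1 libraries was measured. The authors deposited 1 table of TPM for 26830 entries, made with RSEM 1.2.31 on GRCh38, per the submitters' processing notes; the aligner, the annotation and the use of strand: not given in the sources used here. TPM sum to 1000000 per library, which leaves the read depth unknown, and the number of libraries limits precision; 4338 entries are at 0 in all libraries. No pair of libraries was identical, and replicates correlated at 0.9877 to 0.993 across entries.

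The 14951 entries with at least 1 TPM in 3 or more libraries were tested with limma 3.58.1 (R 4.3.3) on log2(TPM + 1), with 1 mean per group over all 16 libraries, a mean-variance trend, two-sided tests and Benjamini-Hochberg adjustment over all entries at 0.05. Folds on this scale understate the change of low genes. The 4 comparisons set each compound against DMSO, the FTO hairpin against its control and the compounds against each other; differences between compound and hairpin responses were contrasts of the same fit, added after the data were seen, as were the chromosome 19 chains and the ribosomal protein share. The fit was tested on simulated data. Alternatives were other pseudocounts (0.1 and 5), no filter, median scaling, quantile normalization, no trend, a replicate block, other rules for members and leaving out each library.

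Coordinates are from GENCODE 29 (GRCh38), where 23793 entries matched by symbol. KRAB boxes were found in translated coding sequences with pyhmmer 0.12.3 (a profile of 384 windows of 41 residues, E-value under 0.001). Promoters are RefSeq's (GRCh38.p14), aligned with Biopython 1.88. Other tools were matplotlib 3.10.9, scipy 1.17.1, pandas 2.3.3 and numpy 2.4.6 in Python 3.11.15.

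Named are, per comparison, the 6 largest rises and 6 largest falls among called members whose groups do not overlap. Also named are members of the role lists, the 5 most abundant and the 3 on either side of 8 TPM. Up to 5 members called alike in all 3 control comparisons, or oppositely with CS1 and CS2, are named too. TRIM28, SETDB1, CBX5 and up to 6 more genes of the TRIM28 and H3K9 list complete them. Members and lists were chosen with earlier results of these data known.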

Additional observations from a re-analysis of the deposited data

Results flagged for a closer look

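In 5 of the 74 groups of 4 DMSO libraries examined, 1 library stood apart from the other 3 by Dixon's 95% criterion for the gap over the range, which chance alone meets in about 1 group in 20. ZNF821 was at 9.92 TPM in DMSO replicate 4 and at 8.88 to 8.98 TPM in the others. ZNF302 was at 9.40 TPM in replicate 1 and at 7.99 to 8.22 TPM in the others. ZNF830 was at 17.4 TPM in replicate 1 against 19.4 to 19.6 TPM. ZNF516 was at 14.3 TPM in replicate 3 against 15.89, 15.88 and 16.04 TPM. ZNF410 was at 34.7 TPM in replicate 1 against 36.9 to 37.2 TPM.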

How the results depend on the processing

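Median scaling and quantile normalization moved the counts most. Members higher with CS1 became 70 under both and members lower 44 and 40; members lower with CS2 became 62 under median scaling, and members lower with shFTO 60 and 63. The member median relative to all entries was 0.07 for CS1 under quantile normalization. Without the filter it was 0.19 for CS1, 0.30 for CS2, 0.05 for shFTO and -0.09 for CS1 against CS2, and with a pseudocount of 5 it was 0.19 for CS2. FTO turned to -0.08 (adjusted p = 0.173) and -0.03 (0.63) with CS1, and to -0.12 (0.0263) and -0.11 (0.0701) with CS2, under median scaling and quantile normalization.

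Leaving out single libraries gave 102 to 127 members higher and 10 to 14 lower with CS1, 128 to 140 and 35 to 38 with CS2, 51 to 68 and 28 to 40 with shFTO, and 38 to 51 and 79 to 96 for CS1 against CS2. The relative median then ran from 0.14 to 0.18 for CS2 and from -0.02 to 0.01 for shFTO. FTO with CS1 ran from 0.06 to 0.16 and passed the test without CS1 replicate 3 (0.16, adjusted p = 0.0274).

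Of 218 called gene results 53 lost the call or turned under at least 1 alternative. Those that turned under median scaling and quantile normalization were, with CS2, SETDB1 (-0.05, -0.03), ZNF131 (-0.09, -0.08), ZNF142 (-0.05, -0.05), ZNF219 (-0.07, -0.06), ZNF254 (-0.05, -0.03), ZNF33A (-0.04, -0.04) and ZNF638 (-0.03, -0.04), and with CS1, ZNF346 (-0.01, -0.02), ZNF384 (-0.06, -0.02), ZNF592 (-0.05, -0.02) and ZNF598 (-0.08, -0.04). ZNF281 with CS2 turned under quantile normalization (-0.01) and ZNF622 with CS1 under median scaling (-0.00). The cause was not tested.

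Same-numbered libraries did not deviate together throughout (correlations of -0.00925 to 0.219). For CS1 against CS2 the same-numbered correlations ran from 0.0853 to 0.219 and the other-numbered ones from -0.179 to 0.0899. Whether the numbers pair the libraries cannot be told from these values. With a replicate block 116 members were higher and 12 lower with CS1, 136 and 39 with CS2, 65 and 31 with shFTO, and 48 and 94 for CS1 against CS2.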
